A study of Mus musculus with 21 samples.

Results

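Angiopoietins and Notch ligands are 2 sets of signals by which the cells of a vessel wall instruct each other, and 10 of their genes are described here by cell type and by tissue: *Angpt1*, *Angpt2*, *Tek*, *Tie1*, *Dll4*, *Jag1*, *Notch1*, *Notch3*, *Notch4* and *Hey1*. They were taken by name from the 32285 genes of the count table, and all 10 were found. The set was chosen with earlier results of these data known. The samples were single cells from a mouse model of malignant melanoma (MM), in which fragments of MT-ret tumors were placed under the skin of young adult mT/mG mice and primary tumors were resected at a fixed volume before lung metastases were followed. Host cells of these mice carry the red protein tdTomato in all tissues, no Cre was present to remove it, and the tumor cells are unlabeled, so that the tumor microenvironment (TME) could be sorted as living tdTomato+ cells, in part after removal of CD45+ cells. The sources do not say from which libraries CD45+ cells were removed. The groups were unchallenged lung without a tumor, lung metastasis TME, primary tumor TME, and MM cells sorted from metastases or from primary tumors.

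The deposited counts are unique molecular identifiers (UMIs), each standing for 1 captured RNA molecule. Libraries with identical cells and counts were counted once. In each TME group replicates 5 and 6 were deposited again under a further name. Lung metastasis TME replicate 6 is also deposited under a name of metastasis MM cells, so which of the 2 sorts it holds cannot be told from the names. Of its 1036 cells 13 fell into the MM cell cluster and 210 into endothelium, and it is used here as TME. This left 100359 cells in 16 libraries, with 4 libraries each of unchallenged lung, lung metastasis TME and primary tumor TME and 2 of MM cells from either site. A library of these groups held 303 to 30419 cells and 1777036 to 60339415 UMIs. Replicate 1-3 pooled 2 mice in the metastasis group and 3 in the primary tumor group. One lung library and 3 MM cell libraries have no replicate number that matches the labels. No 2 of the 16 libraries shared more than 227 barcodes, and none of the cells that shared a barcode had equal counts. Lung metastasis replicate 5 stands apart, since 2036 of its cells fell into the MM cell cluster although the sort was for host cells. P-values below measure the spread between libraries, and each pool counts as 1 library.

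As background, angiopoietin 1 is released by cells around vessels and activates the receptor TEK (also called TIE2) on endothelium, which keeps vessels quiet, whereas angiopoietin 2 is stored and released by endothelium itself and can oppose that signal. TIE1 is a related receptor without a strong ligand of its own that pairs with TEK. Notch receptors are cut after contact with a ligand on the neighboring cell, and their freed inner part works with the factor RBPJ to switch on genes such as *Hey1*. In sprouting vessels DLL4 on the leading tip cell restrains its neighbors, JAG1 is a second ligand, NOTCH1 and NOTCH4 are the endothelial receptors and NOTCH3 is the receptor of mural cells, the pericytes and smooth muscle cells outside the endothelium.

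Cell types were rebuilt from clusters made without the 10 genes, and named by marker lists that hold none of them. Endothelium comprised 6882 cells in 3 clusters. The first, with 4426 cells led by *Npr3* and *Glp1r*, carries markers of general capillary cells of the lung. It is not of 1 type, since 5 of 8 venous and 4 of 8 arterial markers were raised in it as well. The second, with 1259 cells and *Car4*, *Fibin*, *Prx* and *Ednrb* among its leading genes, carries those of aerocytes, the thin capillary cells of gas exchange. The third, with 1197 cells, is led by *Fam167b*, *Igfbp3*, *Tmem252*, *Vwa1* and *Inhbb*, and is called the *Igfbp3 Inhbb* cluster here. Summed over a list of 10 endothelial markers (with *Pecam1* and *Cdh5*), the endothelial cells of a library held 12893 to 18366 UMIs of these genes per 1000000 UMIs (CPM) in unchallenged lung, 8531 to 15061 in lung metastases and 7484 to 9160 in primary tumors. These markers were thus present in every group, but not all of the cells were cleanly endothelial. When the 6882 cells were clustered again, subclusters of 749, 341, 156 and 70 cells were led by genes of MM cells, airway and alveolar cells, fibroblasts and T cells. In all, 1035 of the 1615 metastasis cells, 768 of the 4680 lung cells and 170 of the 555 primary tumor cells were in subclusters that stayed unnamed, beside 350, 4 and 15 cells in a subcluster led by *Ildr2* and *Lamb1* that is described below without a type.

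The clusters were shared unequally between the tissues, which touches each comparison of all endothelial cells. The *Igfbp3 Inhbb* cluster made up at most 1.36% of the endothelial cells of any lung library. Its share was 5.26%, 6.77%, 45.2% and 36.2% in lung metastasis replicates 1-3, 4, 5 and 6, and 78.4%, 100%, 99.1% and 100% in primary tumor replicates 1-3, 4, 5 and 6. A comparison of lung with primary tumor endothelium is thus also a comparison of general capillary cells and aerocytes with the *Igfbp3 Inhbb* cluster, and the metastases are a mixture that differs between libraries. The authors state that their metastasis samples held a little adjacent tissue without tumor. Values of metastasis endothelium below can thus include vessels of that tissue, and its part was not tested. RNA of MM cells moved with tissue as well: the summed level of 8 MM cell markers in endothelial cells was 1.72 to 6.55 CPM in unchallenged lung, 467 to 7524 CPM in lung metastases, highest in replicate 5, and 218 to 1728 CPM in primary tumors. Its part in the results below was not tested.

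The promoters of *Tek*, *Tie1* and *Notch4* are shown because these receptors were at their highest mean levels in all 3 endothelial clusters, while *Tek* differed between tissues and *Tie1* and *Notch4* did not pass the test. *Notch1* also had its highest means in these clusters and did not pass, but its window, without a match, is not printed. Each runs from 250 bases before to 50 bases after the RefSeq start (GRCm38.p6) in the direction of the gene. Capitals mark the letters TGGGAA (a core of RBPJ sites) and AGGAAG (a core of sites of ETS factors, common in endothelial promoters), read on both strands, so that they also appear as TTCCCA and CTTCCT. The windows are chr4:94739039-94739338 (plus strand) for *Tek*, chr4:118489800-118490099 (minus strand) for *Tie1* and chr17:34564045-34564344 (plus strand) for *Notch4*.
Tek: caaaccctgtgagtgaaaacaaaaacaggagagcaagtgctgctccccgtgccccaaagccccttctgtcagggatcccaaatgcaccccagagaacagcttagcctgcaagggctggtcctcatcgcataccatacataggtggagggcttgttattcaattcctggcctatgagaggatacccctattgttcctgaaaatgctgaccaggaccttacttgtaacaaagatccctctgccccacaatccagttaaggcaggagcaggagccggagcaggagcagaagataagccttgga
Tie1: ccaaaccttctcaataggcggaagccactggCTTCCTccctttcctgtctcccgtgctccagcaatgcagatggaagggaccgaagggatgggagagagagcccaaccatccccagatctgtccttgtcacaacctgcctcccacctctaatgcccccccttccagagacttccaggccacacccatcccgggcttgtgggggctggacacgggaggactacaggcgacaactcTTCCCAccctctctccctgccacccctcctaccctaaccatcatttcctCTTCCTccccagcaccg
Notch4: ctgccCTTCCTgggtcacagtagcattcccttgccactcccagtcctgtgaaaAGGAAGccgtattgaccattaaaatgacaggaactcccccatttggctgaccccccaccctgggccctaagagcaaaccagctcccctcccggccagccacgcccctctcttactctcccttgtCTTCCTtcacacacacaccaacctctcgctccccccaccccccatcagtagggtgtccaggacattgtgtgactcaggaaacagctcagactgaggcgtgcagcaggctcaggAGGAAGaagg
The *Tek* window held neither motif, the *Tie1* window held 1 match of the first and 2 of the second, and the *Notch4* window held 0 and 4. Of the 7 members with a promoter in the RefSeq table, *Dll4*, *Jag1*, *Notch1* and *Notch3* held neither. *Angpt1*, *Angpt2* and *Hey1* had no entry. Among 32851 promoters of this length 25.6% held the first motif and 35.4% the second, so a match is common.

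Levels by cell type came first, as mean CPM over the libraries with at least 20 cells of the type. Cell types were rebuilt from the same cells, so these levels are a description without a test. Levels are compared within a gene and not between genes.

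**Figure D1:**
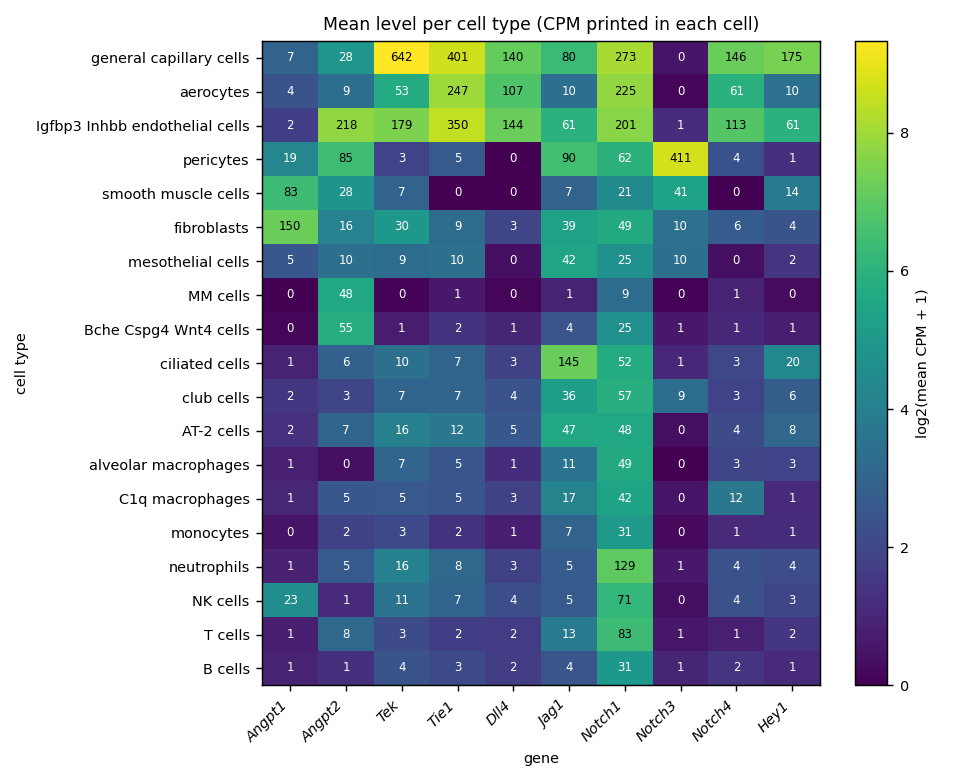
Mean CPM of the 10 genes (columns) in each cell type (rows), over libraries with at least 20 cells of the type. *Tek*, *Tie1*, *Dll4* and *Notch4* are highest in the 3 endothelial clusters, *Notch3* in pericytes and *Angpt1* in fibroblasts.

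*Angpt1*, the ligand that activates TEK, was highest in fibroblasts, at 150 ± 158 CPM (mean ± SD, n = 7 libraries). Smooth muscle cells followed with 82.7 CPM in the only library with enough of them, which lies within the fibroblast range of 19.8 to 470 CPM. NK cells came next with 22.5 ± 11.5 CPM (n = 5) and pericytes with 18.8 ± 10.98 CPM (n = 2), and these overlap. In each endothelial cluster the mean was at most 6.89 CPM.

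*Angpt2*, the ligand released by endothelium, had its highest level in the *Igfbp3 Inhbb* cluster, at 218 ± 78.8 CPM (n = 6). Its range of 112 to 332 CPM did not overlap that of pericytes, with 74.3 and 96.3 CPM. Below them came the cells led by *Bche*, *Cspg4* and *Wnt4*, a cluster that stays unnamed, with 54.7 ± 11.2 CPM (n = 9). MM cells had 47.8 ± 7.52 CPM (n = 5), which overlaps them, and general capillary cells 28.5 ± 18.7 CPM (n = 8). Aerocytes were at 9.34 ± 8.04 CPM (n = 6). The ligand was thus present in host vessels and in the tumor cells themselves, but at unequal levels.

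*Tek* separated the endothelial clusters most clearly. It stood at 642 ± 136 CPM in general capillary cells (n = 8), 179 ± 41.4 CPM in the *Igfbp3 Inhbb* cluster (n = 6) and 53.0 ± 25.8 CPM in aerocytes (n = 6). The ranges of the 3 clusters did not overlap (396 to 797, 111 to 211 and 24.8 to 85.6 CPM). *Tie1* had the same order, with 401 ± 66.1, 350 ± 82.2 and 247 ± 56.5 CPM, but there each cluster overlapped the next. Outside endothelium the highest mean was 30.2 CPM for *Tek*, in fibroblasts, and 12.5 CPM for *Tie1*, in AT-2 cells.

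Of the Notch ligands, *Dll4* was endothelial. Its means were 144 ± 33.6 CPM in the *Igfbp3 Inhbb* cluster, 140 ± 46.0 CPM in general capillary cells and 107 ± 47.6 CPM in aerocytes, with overlapping ranges, and at most 4.87 CPM in any other type. In unchallenged lung alone aerocytes and general capillary cells had 134 ± 29.96 and 133 ± 17.3 CPM (n = 4 each), and the lower aerocyte mean comes from 2 metastasis libraries at 45.5 and 61.9 CPM. *Jag1* was spread over many types. Ciliated airway cells led with 145 ± 91.6 CPM (n = 5), followed by pericytes with 89.8 ± 52.0 CPM (n = 2), general capillary cells with 80.3 ± 35.5 CPM and the *Igfbp3 Inhbb* cluster with 61.4 ± 24.8 CPM. Each of these overlapped the next in order.

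The receptors divided by cell type. *Notch1* was at 273 ± 82.2 CPM in general capillary cells, 225 ± 76.5 CPM in aerocytes and 201 ± 64.4 CPM in the *Igfbp3 Inhbb* cluster, but also at 129 ± 60.1 CPM in neutrophils (n = 10) and 82.7 ± 29.7 CPM in T cells (n = 6), all overlapping their neighbors in the order. *Notch4* had 146 ± 35.1, 113 ± 30.5 and 60.7 ± 16.98 CPM in general capillary cells, the *Igfbp3 Inhbb* cluster and aerocytes, and the aerocyte range overlapped neither the cluster above nor the C1q macrophages below, with 12.1 ± 9.21 CPM (n = 10). *Notch3* was a gene of mural cells, with 411 ± 221 CPM in pericytes (n = 2), 41.4 CPM in the smooth muscle cells of 1 library and 10.1 ± 9.55 CPM in fibroblasts (n = 7). In the endothelial clusters its mean did not exceed 1.26 CPM.

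*Hey1*, the Notch target, followed only some of the receptor-bearing cells. General capillary cells had 175 ± 48.1 CPM, the *Igfbp3 Inhbb* cluster 60.7 ± 49.4 CPM and aerocytes 10.2 ± 8.15 CPM. Ciliated cells, with 19.6 ± 7.33 CPM, lay between the last 2. Aerocytes therefore overlapped the other endothelial clusters in *Dll4* and *Notch1* and lay below the range of general capillary cells in *Hey1* (at most 24.8 against at least 117 CPM).

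Within all endothelial cells, the members were compared between tissues. Libraries were tested with edgeR's quasi-likelihood test on summed UMIs, with Benjamini-Hochberg adjustment over 9727 genes and a call at an adjusted p below 0.05. Of the members 8 were tested, since *Angpt1* and *Notch3* did not pass the filter on low counts in endothelium.

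**Figure D2:**
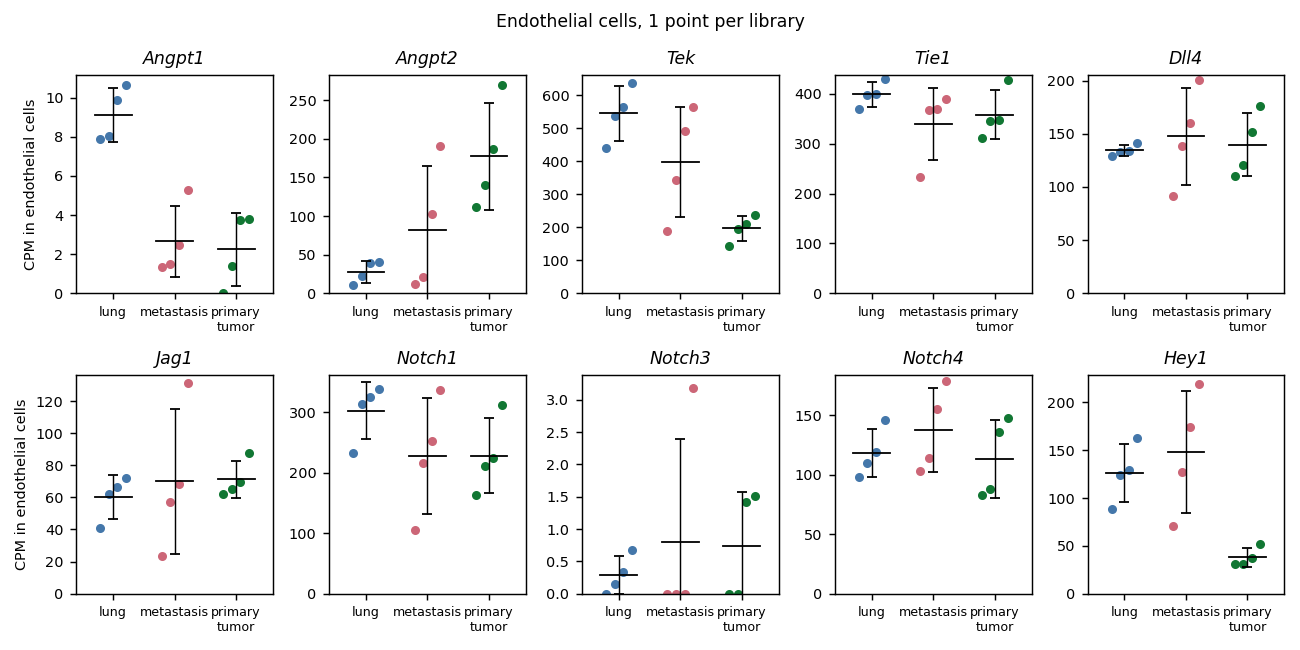
CPM of each of the 10 genes in endothelial cells (vertical axis), 1 point per library, for unchallenged lung, lung metastasis TME and primary tumor TME, with mean and SD. The 4 primary tumor points lie above all lung points for *Angpt2* and below all of them for *Tek* and *Hey1*. The share of all genes that separate so is not given.

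*Angpt2* was higher in primary tumor endothelium than in lung endothelium. Unchallenged lung replicates 4, 5, 6 and the unnumbered library had 22.1, 39.1, 40.1 and 10.7 CPM. Lung metastasis replicates 1-3, 4, 5 and 6 had 21.1, 12.2, 191 and 103 CPM, and the same primary tumor replicates 140, 112, 187 and 270 CPM. All primary tumor libraries were above all lung libraries, while 2 metastasis libraries lay in the lung range and the other two above it, replicate 5 in the primary tumor range. The log2 fold change of primary tumor against lung was 2.81 (SE 0.64, adjusted p = 0.0041).

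*Tek*, the receptor of that ligand, went the other way. It had 637, 537, 439 and 564 CPM in the lung libraries in the same order, 564, 492, 190 and 344 CPM in the metastases and 236, 196, 210 and 144 CPM in the primary tumors. The lowest lung library was above the highest primary tumor library, and again the metastases spanned both. Against lung, *Tek* fell by 1.38 on the log2 scale in primary tumors (SE 0.28, adjusted p = 0.0021). *Tie1* had 311 to 427 CPM in primary tumors against 369 to 429 CPM in lung, a log2 difference of -0.05 (SE 0.19, adjusted p = 0.867) that did not pass.

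*Hey1* set the primary tumors apart from both other tissues. The lung libraries had 163, 88.1, 124 and 129 CPM, the metastases 174, 219, 70.4 and 127 CPM, and the primary tumors 51.9, 30.5, 31.2 and 37.7 CPM. Every primary tumor library was below every other library. *Hey1* fell by 1.68 on the log2 scale in primary tumors against lung (SE 0.32, adjusted p = 0.0011) and was higher in metastases than in primary tumors by 1.91 (SE 0.33, adjusted p = 0.0017).

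In primary tumors against lung 3 of the 8 tested members were called, *Angpt2*, *Tek* and *Hey1*, beside 27.9% of all genes tested. All 3 were also called without the 4 subclusters led by genes of other cell types (log2 fold changes 2.81, -1.31 and -1.66, adjusted p = 0.0101, 0.0301 and 0.00431). The calls of *Angpt2* and *Hey1* were lost, and that of *Tek* was not, when cells with a UMI of a leukocyte, melanoma, epithelial or collagen gene (*Ptprc*, *Dct*, *Pmel*, *Epcam*, *Col1a1*) were left out. This left 15, 36, 20 and 2 endothelial cells in the primary tumor libraries, of which the last was then under the limit of 20 cells, as was the first. *Angpt2* was then at 81.5, 13.7 and 131 CPM in primary tumor replicates 1-3, 4 and 5 from 7, 3 and 12 UMIs, and the log2 fold change was 1.04 (adjusted p = 0.442). For *Hey1* it was -1.60 (adjusted p = 0.075) and for *Tek* -1.38 (adjusted p = 0.00797).

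In metastases against primary tumors 2 of the 8 were called, *Hey1* and *Tek*, beside 11.7% of all genes. *Tek* was higher in metastases by 0.93 on the log2 scale (SE 0.29, adjusted p = 0.0479), but the libraries overlapped. That call was also lost without 7 of the 8 libraries compared, in turn, the exception being metastasis replicate 5, without which the difference was 1.15 (adjusted p = 0.0043). That of *Hey1* was lost without the doubtful cells named above (2.34, adjusted p = 0.0554), where that of *Tek* held (1.34, adjusted p = 0.0398). The *Tek* call was lost as well without lymphatic cells (0.82, adjusted p = 0.0915) and with the replicate number as a block (0.88, adjusted p = 0.0529). Without metastasis replicate 5 *Angpt2* was called, at -1.92 (adjusted p = 0.0443), against -0.98 (SE 0.61, adjusted p = 0.376) with it.

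In metastases against lung none of the 8 was called by edgeR or by DESeq2, beside 3.25% of all genes. Only *Angpt2* had an unadjusted p below 0.05 (log2 fold change 1.83, SE 0.62, adjusted p = 0.137). It rests on metastasis replicates 5 and 6, and was 0.90 (adjusted p = 0.652) without replicate 5 and 2.18 (adjusted p = 0.0209) without replicate 4. In run 3 alone, which holds replicates 5 and 6 of each tissue, it was 2.03 (adjusted p = 0.0049). Without the doubtful cells the direction turned, at -2.44 (adjusted p = 0.833), since replicate 5 then had no cells, replicate 6 had 2 and was under the limit, and the 41 and 26 cells of replicates 1-3 and 4 held 0 and 1 UMIs of *Angpt2*. *Angpt1* passed the filter on low counts in run 3 alone and was called there (-2.07, SE 0.61, adjusted p = 0.0365), but it was not called over all libraries with no filter (-1.95, SE 0.61, adjusted p = 0.087). In primary tumors against lung it was called neither in run 3 alone (-1.70, adjusted p = 0.0728) nor with no filter (-1.64, adjusted p = 0.0622). The other members differed by -0.45 to 0.22 on this scale.

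**Figure D3:**
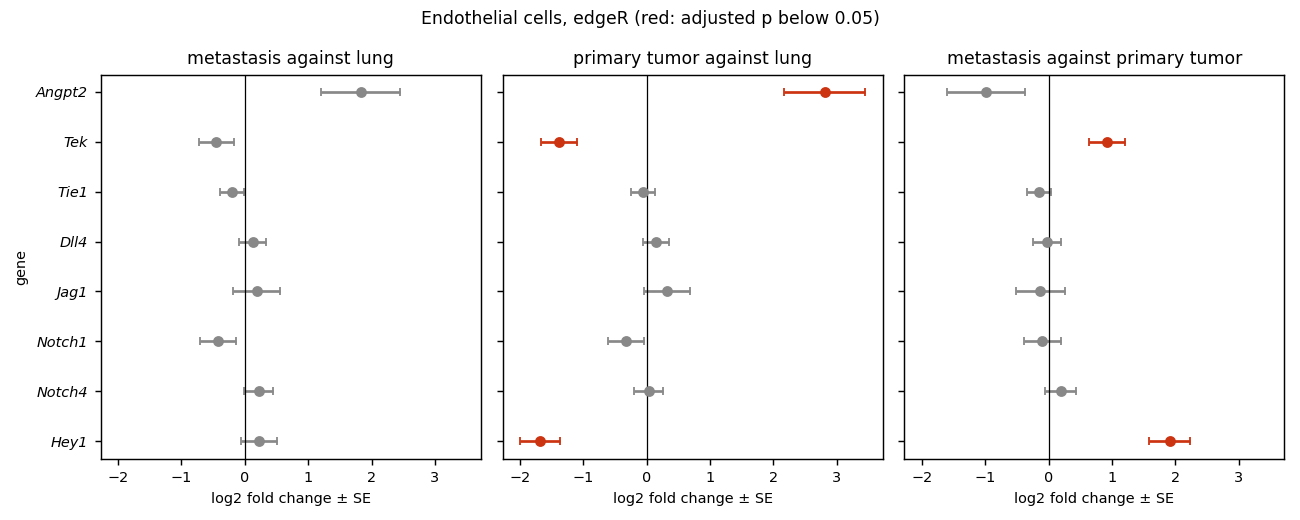
Log2 fold changes of the tested members in endothelial cells with SE, in 1 panel per comparison, where red marks an adjusted p below 0.05. Red points are *Angpt2*, *Tek* and *Hey1* for primary tumor against lung, *Tek* and *Hey1* for metastasis against primary tumor, and none for metastasis against lung.

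*Dll4*, *Jag1*, *Notch1* and *Notch4* passed in none of these 3 comparisons. *Dll4* had 129 to 142 CPM in lung, 91.3 to 200.2 CPM in metastases and 111 to 176 CPM in primary tumors, with a log2 difference of 0.15 (SE 0.21) for primary tumor against lung. *Notch1* had 233 to 338 CPM, 106 to 337 CPM and 163 to 312 CPM in that order. *Jag1* had 40.8 to 72.2 CPM, 23.4 to 131 CPM and 62.3 to 87.9 CPM. *Notch4* had 98.3 to 146 CPM, 103 to 179 CPM and 82.7 to 148 CPM. The metastasis values were the widest of the 3 groups for all 4 genes, and replicate 5 was the lowest metastasis library for each of them. *Angpt1*, which did not pass the filter, was at 7.9 to 10.6 CPM in lung (151 UMIs), 1.4 to 5.3 CPM in metastases (10 UMIs) and 0 to 3.8 CPM in primary tumors (9 UMIs), so the lung libraries lay above all others.

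The share of endothelial cells with a UMI was taken after each cell had been thinned to 1000 UMIs, and shallower cells were left out. *Tek* was found in 40.4% of 4462 lung cells (exact binomial 95% interval 39.0 to 41.9%), 22.7% of 1491 metastasis cells (20.6 to 24.9%) and 13.7% of 541 primary tumor cells (10.9 to 16.9%). *Angpt2* was found in 2.69%, 7.24% and 11.8% of these cells and *Hey1* in 11.2%, 9.19% and 2.22%. In B cells of the lung, which should lack these genes, the shares were 1.05%, 0.327% and 0.654% of 1529 cells, a level that free RNA or mixed droplets can reach. At full depth the endothelial shares were 67.4%, 38.3% and 44.9% for *Tek*, 8.14%, 12.9% and 27.9% for *Angpt2* and 27.4%, 16.97% and 12.3% for *Hey1*. Median depth per endothelial cell was 1574 to 4413 UMIs in the lung libraries and 4635 to 6295 UMIs in the primary tumor libraries. Intervals cover counting error only.

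Members were also compared between tissues within each cluster. The cells so compared were not alike at the finer scale of subclusters, where 133 metastasis cells and 2134 lung cells were named general capillary. In general capillary cells, of metastases against lung, none of 8 tested members was called by edgeR or DESeq2 or had an unadjusted p below 0.05, beside 0.222% of all genes. *Tek* was at 753, 748, 656 and 797 CPM in the lung libraries and at 694, 563, 396 and 533 CPM in the metastases, a difference of -0.40 on the log2 scale (SE 0.22, adjusted p = 0.585). *Angpt2* was at 14.2 to 59.4 CPM in lung and 11.1 to 28.1 CPM in metastases, so in these cells the metastasis libraries lay in the lower part of the lung range or, in the case of replicate 6, below it. *Hey1* had 174 ± 32.3 CPM in lung and 176 ± 65.9 CPM in metastases (n = 4 each).

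**Figure D4:**
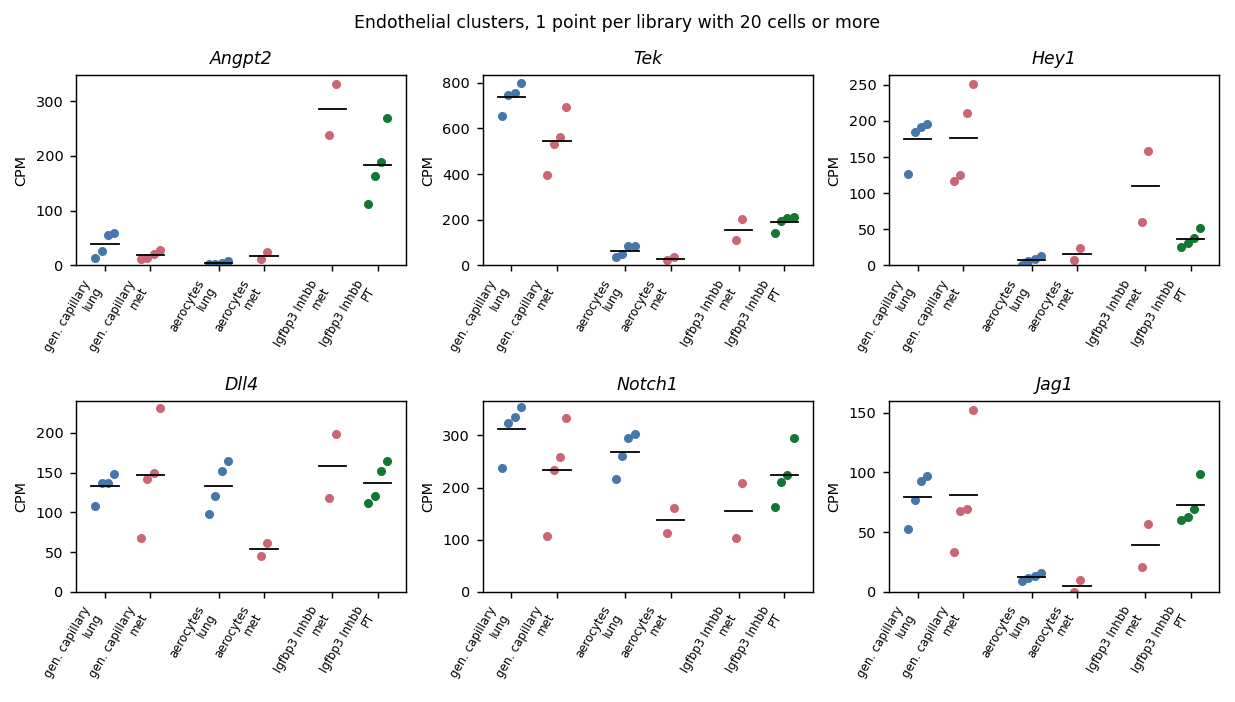
CPM of *Angpt2*, *Tek*, *Hey1*, *Dll4*, *Notch1* and *Jag1* in the 3 endothelial clusters by tissue, 1 point per library with at least 20 cells of the cluster. *Angpt2* is high in the *Igfbp3 Inhbb* cluster in metastases (239 and 332 CPM) and in primary tumors (112 to 270 CPM), and *Tek* is high in general capillary cells of lung and of metastases.

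In the *Igfbp3 Inhbb* cluster the 2 metastasis libraries with enough cells were compared with the 4 primary tumor libraries, a test added after the clusters were seen. *Hey1* was called, 1 of 8 tested members, beside 3.48% of all genes. It had 60.6 and 158 CPM in metastasis replicates 5 and 6 and 51.6, 30.5, 25.9 and 37.7 CPM in the primary tumors, with a log2 fold change of 1.53 (SE 0.37, adjusted p = 0.0384) and no overlap. The call was lost without 4 of the 6 libraries in turn, at 0.86 (adjusted p = 0.143) without metastasis replicate 6 and at 1.41 to 1.59 (adjusted p 0.0811 to 0.124) without primary tumor replicate 4, 5 or 6. It was lost as well with the replicate number as a block (1.68, adjusted p = 0.0529), with run as a block (1.63, adjusted p = 0.115) and in run 3 alone (1.63, adjusted p = 0.124). *Angpt2* had 332 and 239 CPM in the metastases and 164, 112, 190 and 270 CPM in the primary tumors (log2 fold change 0.65, SE 0.33, adjusted p = 0.408). *Tek* had 157 ± 63.9 CPM (n = 2) and 190 ± 31.6 CPM (n = 4), which did not pass. The tissues lay in different subclusters here too. Over all endothelial cells, the subcluster led by *Ildr2* and *Lamb1* held 350 metastasis and 15 primary tumor cells, and that led by *Adamts18* and *Meox2* held 10 and 285. *Hey1* was at 85.7 CPM in the metastasis cells of the first and 26.8 CPM in the primary tumor cells of the second, so the call and the difference between these subclusters cannot be told apart. MM cell markers summed to 1479 and 7847 CPM in the metastasis cells of the *Igfbp3 Inhbb* cluster.

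In aerocytes the metastasis libraries 5 and 6 were below all lung libraries for every tested member, namely *Tek*, *Tie1*, *Dll4*, *Notch1* and *Notch4*. The share of all genes that lay so is not given, nor that with an unadjusted p below 0.05. Neither count of members is thus a result about them. The other 5 members did not pass the filter on low counts, and none of them was called with no filter. Of these *Angpt2* went the other way without overlap, at 12.4 and 23.9 CPM in metastases (11 UMIs) and 2.22 to 8.64 CPM in lung (20 UMIs), and *Hey1* and *Jag1* came from 5 and 4 UMIs in the metastases. None of the 5 tested was called by edgeR or DESeq2 in this test, also added after the clusters were seen, beside 2.22% of all genes, while 3 had an unadjusted p below 0.05. *Dll4*, the largest of them, had 121, 152, 164 and 97.8 CPM in lung and 45.5 and 61.9 CPM in metastases from 19 and 5 UMIs (log2 fold change -1.30, SE 0.37, adjusted p = 0.0933). *Notch1* had 261, 303, 296 and 216 CPM against 112 and 161 CPM (-0.96, SE 0.31, adjusted p = 0.131). *Dll4* was called with the replicate number as a block (-1.50, adjusted p = 0.0482), and in run 3 alone (-1.61, adjusted p = 0.0121) together with *Notch1*. When libraries with 10 cells were let in, the *Dll4* difference was smaller, at -0.76 (adjusted p = 0.403). Here too MM cell markers moved with tissue, at 2.67 to 8.64 CPM in lung and 1722 and 7170 CPM in metastases. At the finer scale of subclusters, only 21 of the 236 metastasis cells of this cluster were in a subcluster named aerocyte. In those 21 cells *Dll4* was at 127 CPM (exact Poisson 95% interval 69.5 to 213), beside 135 CPM (125 to 147) in the 973 lung cells so named. *Notch1* was at 236 CPM (154 to 346) and 276 CPM (260.1 to 292), and *Notch4* at 72.6 CPM (31.3 to 143) and 70.2 CPM (62.5 to 78.6). For these 3 genes the intervals overlap. *Tie1* was at 136 CPM (76.2 to 224) in the metastasis cells and 293 CPM (277 to 309) in the lung cells, where the intervals do not overlap. *Tek* was at 18.1 CPM (2.20 to 65.6) from 2 UMIs and 66.2 CPM (58.7 to 74.4), with intervals that overlap. A further subcluster of 200 cells stayed unnamed, since 7 of 8 MM cell markers were raised in it beside 6 of 7 aerocyte markers.

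Subclusters show the members at a finer scale, as sums over the libraries of a tissue with exact Poisson intervals and no test. The subcluster led by *Ildr2* and *Lamb1* (370 cells) was almost all from metastases (350 cells). All 8 of 8 MM cell markers were raised in it, beside 6 of 8 markers of tip cells such as *Esm1* and *Apln*, so it is given no type, and the part of MM cell RNA in its levels was not tested. *Angpt2* itself is among its leading genes. The metastasis cells of it had *Angpt2* at 372 CPM (340 to 406), *Tek* at 101 CPM (84.4 to 119) and *Hey1* at 85.7 CPM (70.7 to 103). In primary tumors the largest subcluster, led by *Adamts18* and *Meox2* (285 cells), in which 5 of 10 fibroblast markers were raised, had *Angpt2* at 209 CPM (190 to 230), *Tek* at 208 CPM (189 to 228) and *Hey1* at 26.8 CPM (20.2 to 34.8). Both had *Dll4* at similar levels, 153 and 149 CPM. Lymphatic cells of primary tumors (54 cells) had *Angpt2* at 342 CPM (281 to 412) and *Notch4* at 3.14 CPM from 1 UMI.

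Arterial and venous cells differed in their Notch genes, but arterial cells were named in part by such genes. The arterial marker list shares *Gja5*, *Gja4*, *Sox17* and *Efnb2* with the Notch list counted below, and *Hey2* of that list led the subcluster. The difference is therefore a description and no support for either name. In the arterial subcluster 4 of 8 venous markers were raised beside 7 of 8 arterial markers. In unchallenged lung the arterial cells (147 cells) had *Notch1* at 503 CPM, *Dll4* at 258 CPM, *Jag1* at 221 CPM and *Hey1* at 151 CPM. Venous cells of the lung (648 cells) had *Notch1* at 225 CPM, *Dll4* at 9.89 CPM (6.27 to 14.8), *Jag1* at 90.8 CPM and *Hey1* at 28.0 CPM (21.6 to 35.6), whereas *Tek* was at 644 CPM there and 529 CPM in arterial cells. *Angpt2* was low in arterial cells, with 6.49 CPM from 4 UMIs in lung and 0 UMIs in the 21 arterial cells of primary tumors, which allows up to 25.6 CPM at the upper bound of the interval. Those 21 cells had *Jag1* at 464 CPM (359.8 to 590) and *Hey1* at 146 CPM (90.1 to 222). General capillary cells had *Hey1* at 213 CPM (203 to 223) in lung and 295 CPM (249 to 346) in the 133 metastasis cells so named. These are sums over libraries, and in the general capillary cluster the libraries given above had a log2 difference of 0.05 (adjusted p = 0.988), which did not pass.

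Fibroblasts carried the activating ligand, and less of it in primary tumors. Here 3 libraries each of lung and primary tumor had at least 20 cells, and 1 of metastasis. *Angpt1* had 470, 222 and 124 CPM in lung replicates 4, 5 and 6, 136 CPM in metastasis replicate 5, and 41.0, 19.8 and 34.7 CPM in primary tumor replicates 4, 5 and 6. All primary tumor libraries were below the others. The class pools fibroblasts of different subclusters, and these were shared almost without overlap. In the lung libraries, subclusters led by *Npnt* and *Itga8*, by *Mfap4* and *Npnt* and by *Clec3b* and *Pi16* held all fibroblasts, and in the primary tumor libraries those led by *Inhba* and *Tnc*, by *Igfbp5* and *Col8a1* and by *Lrrc15* and *Sfrp2* held all but 0.514% to 10.6%. A comparison of the tissues is thus also one of these subclusters. The subcluster led by *Npnt* and *Itga8* (718 cells) was not cleanly fibroblast. In it 6 of 6 neutrophil, 5 of 9 macrophage and 5 of 7 monocyte markers were raised against the other stromal cells. It held 676 of the 735 fibroblasts of lung replicate 6. The *Clec3b* and *Pi16* subcluster alone had more than a few cells of both tissues, with *Angpt1* at 143 CPM (exact Poisson 95% interval 118 to 171) in 131 lung cells and 17.3 CPM (3.57 to 50.7) in 19 primary tumor cells. Among the others *Angpt1* ranged from 108 to 481 CPM in lung and from 10.8 to 40.04 CPM in primary tumors. Over all fibroblasts *Angpt1* fell by 2.92 on the log2 scale (SE 0.52, adjusted p = 0.0116) in primary tumors against lung, and lost the call without primary tumor replicate 5 (-2.70, adjusted p = 0.057) or 6 (-2.99, adjusted p = 0.0654) and in run 3 alone (-2.57, adjusted p = 0.0525), with differences about as large.

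*Notch3*, the mural receptor, was higher in primary tumor fibroblasts, with 23.8, 19.8 and 15.1 CPM against 0, 1.1 and 2.9 CPM in lung and 7.8 CPM in the metastasis library. The log2 fold change was 3.41 (SE 0.68, adjusted p = 0.0166), from 78 and 5 UMIs. In the *Clec3b* and *Pi16* subcluster *Notch3* had 0 UMIs in lung and 1 UMI in primary tumors, too few to compare. The summed level of 10 pericyte markers moved with it, at 146 to 480 CPM in lung fibroblasts, 500.4 CPM in the metastasis library and 1017 to 1438 CPM in primary tumor fibroblasts. That list holds *Postn* and *Pdgfrb*, which were also leading genes of clusters with raised fibroblast markers, so the sum is not specific to pericytes. The part of this summed level in the difference was not tested. The call of *Notch3* was lost without any 1 of the 3 primary tumor libraries (3.27 to 3.56, adjusted p 0.0668 to 0.076) and in run 3 alone (3.03, adjusted p = 0.0929), while the log2 fold change moved little. With the doubtful cells left out *Notch3* had too few counts to be tested.

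*Tek* in fibroblasts had 11.2, 99.4 and 55.3 CPM in lung and 1.3, 9.1 and 8.7 CPM in primary tumors, a fall by 3.02 on the log2 scale (SE 0.75, adjusted p = 0.0364). The 10 endothelial markers summed to 351 to 737 CPM in the lung fibroblasts and 130 to 379 CPM in those of primary tumors, and their part was not tested. In lung, the *Clec3b* and *Pi16* subcluster had *Tek* at 122 CPM (98.8 to 148) and *Tie1* at 3.73 CPM. Those led by *Npnt* and *Itga8* and by *Mfap4* and *Npnt* had *Tek* at 52.6 and 7.69 CPM. Their *Tie1* was at 34.0 and 1.92 CPM. The *Clec3b* and *Pi16* subcluster held 5.45%, 70.4% and 4.49% of fibroblasts in lung replicates 4, 5 and 6. Its 19 primary tumor cells had *Tek* at 17.3 CPM (3.57 to 50.7). Its part was not tested either. The call was lost without lung replicate 5 (-2.34, adjusted p = 0.0732), without any 1 primary tumor library (-3.41 to -2.65, adjusted p 0.101 to 0.129) and without doubtful cells (-4.32, adjusted p = 0.0863). *Jag1* was at 0, 28.6 and 17.2 CPM in lung and 71.4, 60.9 and 85.9 CPM in primary tumors without overlap, but did not pass (2.11, SE 0.59, adjusted p = 0.0514). It was called by DESeq2 (adjusted p = 0.0221), when libraries with 10 cells were let in (adjusted p = 0.0347), without the filter on low counts (adjusted p = 0.00312) and without lung replicate 4 (adjusted p = 0.0262) or 5 (adjusted p = 0.0319). In the *Clec3b* and *Pi16* subcluster *Jag1* was at 29.8 CPM (19.1 to 44.3) in lung and 40.4 CPM (16.3 to 83.3) in primary tumors. These intervals overlap. In all, 3 of 8 tested members were called in fibroblasts, beside 12.5% of all genes.

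**Figure D5:**
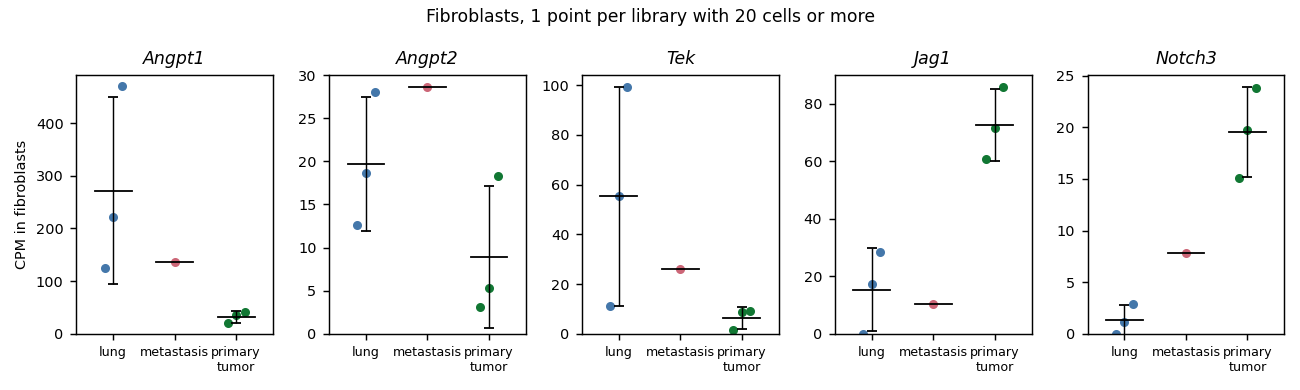
CPM of *Angpt1*, *Angpt2*, *Tek*, *Jag1* and *Notch3* in fibroblasts, 1 point per library with at least 20 fibroblasts, with mean and SD. *Angpt1* and *Tek* are lower and *Jag1* and *Notch3* higher in all 3 primary tumor libraries than in all 3 lung libraries. *Jag1* did not pass the test, and the share of all genes that separate so is not given.

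Pericytes reached 20 cells in 1 metastasis and 1 primary tumor library only (34 and 55 cells), so no test was possible and the values carry counting intervals. Markers of pericytes summed to 5381 and 11406 CPM in these cells, beside 20811 and 15244 CPM for fibroblast markers. *Notch3* was at 255 CPM (exact Poisson 95% interval 188 to 338) in metastasis replicate 5 and 567 CPM (492 to 650.0) in primary tumor replicate 4. *Jag1*, the ligand that *Notch3* answers to in mural cells, was at 53.1 CPM (25.4 to 97.6) and 127 CPM (92.7 to 169). *Angpt2* was at 74.3 CPM (40.6 to 125) and 96.3 CPM (67.1 to 134), and *Angpt1* at 26.5 CPM (8.61 to 61.9) and 11.01 CPM (3.00 to 28.2). The intervals of *Notch3* do not overlap, and those of the other 3 genes do, but the libraries cannot be told apart from the tissues. *Notch1* had 47.8 and 77.0 CPM.

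MM cells expressed *Angpt2* and little else of the set. It was at 59.0 and 43.7 CPM in the 2 metastasis libraries and 38.8 and 48.3 CPM in the 2 primary tumor libraries, from 2702 and 3654 UMIs, and at 49.0 CPM in the 2036 MM cells of metastasis replicate 5. The sites differed by 0.22 on the log2 scale (SE 0.35, adjusted p = 0.999). None of 4 tested members was called by edgeR or DESeq2, beside 0.035% of all genes. *Notch1* alone had an unadjusted p below 0.05, with 5.04 ± 3.06 CPM in metastases and 13.7 ± 5.58 CPM in primary tumors (n = 2 each, log2 difference -1.23, SE 0.44, adjusted p = 0.999 in edgeR). *Angpt1* and *Notch3* had 0 UMIs in these 4 libraries, and *Tek* 1.

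Further genes were counted from a list of 18 genes of angiopoietin signaling and of vessel growth more widely and one of 31 Notch genes, both chosen with earlier results of these data known. In endothelium of primary tumors against lung, 7 of 14 tested genes of the first list were higher and 3 lower, beside 27.9% of all genes called in either direction, and the median log2 fold change was 0.64, against -0.03 over all genes tested. The 7 were *Nos3*, *Plxnd1*, *Angptl4*, *Esm1*, *Aplnr*, *Angptl2* and *Akt1*, of which most belong to semaphorin, apelin, tip cell or angiopoietin-like signals and not to the angiopoietin receptors. The vessel nitric oxide synthase *Nos3* was higher by 1.98 (SE 0.23), the semaphorin receptor *Plxnd1* by 2.14 (SE 0.28), *Angptl4* by 4.16 (SE 0.56) and the tip cell gene *Esm1* by 3.64 (SE 0.49). The growth factor gene *Vegfa* was lower (log2 fold change -3.78, SE 0.58), with 28.3 ± 14.6 CPM in primary tumors and 386 ± 143 CPM in lung (n = 4 each). *Ptprb*, a phosphatase that acts on TEK, was lower too (-0.88, SE 0.30, adjusted p = 0.0419), and is named here after its value was seen. The remaining lower gene was *Kdr* (-1.13, SE 0.29, adjusted p = 0.00897).

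Of the Notch list 4 of 27 were higher and 4 lower, with a median of -0.20, a share near the 27.9% of all genes and so no result about that list. Among them *Nrarp*, another gene that Notch switches on, was at 108 ± 6.42 CPM in primary tumors and 26.1 ± 15.6 CPM in lung (n = 4 each, log2 fold change 2.10, SE 0.36, adjusted p = 0.00053), the opposite direction to *Hey1*. The ligand *Jag2* was higher by 1.28 (SE 0.23), and the Notch inhibitor *Numb* was lower (log2 fold change -1.52, SE 0.28).

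In metastases against lung 2 genes of the first list were higher, *Angptl4* (2.82, SE 0.58, adjusted p = 0.0131) and *Esm1* (2.16, SE 0.48, adjusted p = 0.0215), 1 was lower, *Kdr* (-1.38, SE 0.29, adjusted p = 0.0151), and none of the 27 Notch genes was called by edgeR, beside 3.25% of all genes. In metastases against primary tumors, *Vegfa* (3.60, SE 0.58) was higher and *Plxnd1*, *Aplnr* and *Nos3* lower, so 1 of 14 rose and 3 fell, beside 11.7% of all genes. Of the 27 Notch genes 3 were higher, among them the arterial factor *Sox17* and *Numb*, and 2 lower, the Notch-cutting protease *Adam10* (-1.06, SE 0.21) and *Nrarp* (-1.41, SE 0.38). *Nrarp*, with 40.6 ± 8.45 CPM in metastases, and *Hey1* thus had opposite directions in this comparison too. The comparisons share libraries, so they are not independent.

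In fibroblasts 1 of 14 genes of the first list was higher in primary tumors, *Angptl1* (4.52, SE 0.85), and 1 lower, *Foxo1* (-1.66, SE 0.34). Of 23 Notch genes *Unc5b* (5.02, SE 0.73) and *Efnb2* (3.16, SE 0.50) were higher and *Gja5* (-4.12, SE 0.74) and *Maml2* (-1.54, SE 0.31) lower. Both counts are close to the 12.5% of all genes called in fibroblasts. In the *Igfbp3 Inhbb* cluster *Aplnr* was lower in metastases than in primary tumors (-1.36, SE 0.28), and it alone was called. None of either list was called in general capillary cells, aerocytes or MM cells.

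The genes most like each member were sought over 48 means of a cell type in a tissue, by Pearson's r of log2(CPM + 1) among 13475 genes, as a description. *Ptprb* (r = 0.96) was nearest to *Tek*, *Tspan18* (0.96) to *Tie1*, *Sox18* (0.94) to *Dll4* and *Dll4* itself (0.91) to *Notch4*. Markers of stroma came nearest to *Angpt1* (*Ms4a4d*, 0.83, then *Dpt*) and to *Notch3* (*Aoc3*, 0.89, then *Actg2* and *Pdgfrb*). *Gnb4* (0.86) and *Stc1* were nearest to *Angpt2*, *Npr3* (0.85) to *Hey1*, *Numb* (0.82) to *Notch1* and *Klhl3* (0.75) to *Jag1*, the loosest match of the 10. Means from 1 library share its depth and its free RNA.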

How the data were processed

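Single-cell RNA sequencing used the Chromium 3' v3.1 kit. The authors aligned reads with Cell Ranger 6.1.1 to GRCm38 and filtered cells, and the deposited table holds raw counts of UMIs per gene and cell, while their own work continued in Seurat 3.2.2. Here 24 library names were reduced to 16 libraries after 5 names identical to another were merged, which removed 9924 barcodes, and names that the labels list as 1 sample were summed. The table of normalized values was not used.

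Cells were clustered with Seurat 5.3.0 in R 4.3.3 (2000 variable genes less the 7 members among them, 17 principal components, 20 neighbors, resolution 0.5, 23 clusters), and the endothelial and the stromal cells again with 12 components. Each named cluster of all cells had at least 3 raised markers of its type, but this alone did not decide a name. The cells led by *Bche*, *Cspg4* and *Wnt4* stayed unnamed with 3 of 5 Schwann cell markers raised. Subclusters led by *Npnt* and *Itga8* and by *Inhba* and *Tnc* counted as fibroblasts with fewer than 3 fibroblast markers raised against the other stromal cells. Another of 353 cells, with 3 raised beside markers of other types, did not. Of a cluster with macrophage markers 2590 cells, 2501 of them in lung replicate 6, were left unnamed. No doublet caller was run. UMIs were summed per library and type with at least 20 cells, and CPM is relative to all UMIs of those cells. Counts were tested with edgeR 4.0.16 (filterByExpr, TMM, quasi-likelihood F test, two-sided, 3 tissues in 1 fit, Benjamini-Hochberg over all genes tested), after the script had been tested on simulated data with 200 changed genes, and with DESeq2 1.42.0 as an alternative. Sequencing run follows the replicate number, and run as a block and run 3 alone were alternatives added after the data were seen, as were those without some subclusters. The members, the marker lists and the pathway lists were chosen with earlier results of these data known. The pathway genes named are those called, at most 8 per comparison by adjusted p. This limit was passed in primary tumor against lung endothelium, where not all called genes are named. Shares were taken at 1000 UMIs per cell, and intervals are exact at 95%.

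Replicate numbers were checked as pairs. Replicates 5 and 6 of the primary tumor and metastasis groups were taken from the same animals and replicates 1-3 in part, whereas replicate 4 was not. The correlations of the deviations from the group means were 0.144, 0.0186, 0.163 and 0.164 for replicates 1-3, 4, 5 and 6 of these groups. The highest with another number was 0.0213, 0.114, 0.132 and 0.0834, so within these groups only replicates with shared animals exceeded it. Between lung and metastases the correlations were 0.19, -0.108 and 0.0924 for replicates 4, 5 and 6. There the highest with another number was 0.0221, 0.28 and 0.0683. Replicates 4 and 6 thus exceeded it without shared animals, so the check does not single out shared animals. Between lung and primary tumors no replicate exceeded it. The numbers thus do not pair the samples throughout, and the main fit has no block. It treats libraries of the same animals as independent, and the fit with the replicate number as a block is given as an alternative.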

Additional observations from a re-analysis of the deposited data

Results flagged for a closer look

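Of 70 groups of 4 to 10 values looked at, 5 held a sample far from the others, and chance flags about 1 group in 20. *Tie1* in endothelial cells was at 233 CPM in lung metastasis replicate 5, against 367 to 390 CPM in the other metastasis libraries. *Hey1* in general capillary cells was at 126 CPM in unchallenged lung replicate 5, against 185 to 195 CPM in the other lung libraries. *Notch3* was above 0 in a single library of a group in 3 cases, at 3.19 CPM (9 UMIs) in endothelial cells and 2.25 CPM (2 UMIs) in general capillary cells of lung metastasis replicate 5, and at 0.532 CPM (1 UMI) in aerocytes of unchallenged lung replicate 5.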

How the results depend on the processing

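The 3 calls in primary tumor against lung endothelium, *Angpt2*, *Tek* and *Hey1*, held under DESeq2, the other scaling, no filter, other cell limits, resolution 1.0, the replicate and run blocks, run 3 alone and without each library in turn, and fell to 1 call (*Tek*) without doubtful cells. Counts of called members changed elsewhere. In metastasis against primary tumor endothelium 2 calls became 1 without doubtful cells, with no filter, at resolution 1.0, in run 3 alone, without lymphatic cells and without subclusters led by genes of other types, and 1 to 3 without single libraries. In metastasis against lung endothelium 0 became 2 in run 3 alone (*Angpt2* and *Angpt1*) and 0 to 1 without single libraries. In fibroblasts 3 became 1 without doubtful cells, where *Notch3* was no longer among the 4 members tested, and 1 in run 3 alone, and 0 to 4 without single libraries. In the *Igfbp3 Inhbb* cluster 1 became 0 in run 3 alone and with run as a block, and 0 to 1 without single libraries. In aerocytes 0 became 2 in run 3 alone and 1 with no filter and with run as a block.

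With the replicate number as a block, calls became 1 in metastasis against primary tumor endothelium, 0 in the *Igfbp3 Inhbb* cluster and 1 in aerocytes, and no other count changed. Log2 fold changes that turned sign under this block were -0.014 (*Dll4*) and -0.13 (*Jag1*) in metastasis against lung endothelium, -0.042 (*Notch4*) in primary tumor against lung endothelium, and -0.084 (*Dll4*), -0.19 (*Jag1*) and -0.010 (*Hey1*) in general capillary cells.

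Among uncalled values 62 turned sign, and no called value did. In metastasis against lung endothelium these were -2.44 (*Angpt2*) and 0.070 (*Notch1*) without doubtful cells and -0.059 (*Dll4*), -0.81 (*Jag1*) and -0.041 (*Hey1*) in run 3 alone. In primary tumor against lung endothelium they were -0.11 (*Dll4*) and -0.51 (*Notch4*) without doubtful cells, -0.054 (*Notch4*) with no filter, and for *Tie1* 0.19 at resolution 1.0 and 0.050 without lymphatic cells. In metastasis against primary tumor endothelium they were 0.36 (*Notch1*), 0.52 (*Dll4*), 0.16 (*Jag1*) and 0.11 (*Tie1*) without doubtful cells and -0.15 (*Notch4*) in run 3 alone. *Notch1* in fibroblasts was -0.088 without doubtful cells and -0.024 in run 3 alone. General capillary cells had -0.17 (*Dll4*), -0.89 (*Jag1*) and -0.26 (*Hey1*) in run 3 alone, *Hey1* at -0.038 with no filter and -0.040 at resolution 1.0, and *Jag1* at -0.060 with run as a block. The *Igfbp3 Inhbb* cluster had *Notch4* at 0.039 with at least 50 cells and *Tie1* at 0.024 in run 3 alone and 0.029 with run as a block. The cause of these changes was not tested.

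Without single libraries, log2 fold changes that crossed 0 ranged from -0.072 to 0.50 for *Angpt2* in MM cells and from -0.25 to 0.46 for *Notch1* in fibroblasts. In metastasis against lung endothelium they were -0.0084 to 0.29 (*Dll4*), -0.093 to 0.47 (*Hey1*) and -0.45 to 0.55 (*Jag1*). Against primary tumor endothelium they were -0.14 to 0.15 (*Dll4*), -0.745 to 0.24 (*Jag1*) and -0.29 to 0.14 (*Notch1*), and in primary tumor against lung -0.15 to 0.15 (*Notch4*) and -0.13 to 0.011 (*Tie1*). General capillary cells had -0.10 to 0.36 (*Dll4*), -0.20 to 0.19 (*Hey1*) and -0.50 to 0.38 (*Jag1*). The *Igfbp3 Inhbb* cluster had -0.15 to 0.49 (*Dll4*), -0.44 to 0.20 (*Notch4*), -0.71 to 0.035 (*Tek*) and -0.60 to 0.29 (*Tie1*).

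The block in MM cells and the 50-cell limit in aerocytes were not run for lack of libraries, nor were the tests of pericytes and of metastasis fibroblasts, each with 1 library. Where 1 library was left in an arm it was assumed to vary like the others. *Angpt1* and *Notch3* in endothelium and *Angpt2* in aerocytes, with few UMIs, did not pass the filter on low counts. With no filter none of them was called, the lowest adjusted p being 0.0622 (*Angpt1* in primary tumor against lung endothelium).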

Other observations

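Other cell types carried single members at levels that the tissue comparisons did not use. The unnamed cells led by *Bche*, *Cspg4* and *Wnt4* had *Angpt2* at 62.1 ± 14.7 CPM among sorted MM cells of metastases, 49.2 ± 13.5 CPM in the metastasis TME, 62.0 ± 3.38 CPM among MM cells of primary tumors (n = 2 libraries each) and 48.7 ± 10.3 CPM in the primary tumor TME (n = 3), with overlapping ranges in all 4. In ciliated airway cells *Jag1* was at 191 ± 75.5 CPM in unchallenged lung and 163 ± 81.4 CPM in the metastasis TME (n = 2 each). Neutrophils had *Notch1* at 178 ± 51.1 CPM in unchallenged lung (n = 4), 121 ± 16.2 CPM in the primary tumor TME (n = 2) and 95.2 ± 52.6 CPM in the metastasis TME (n = 3). NK cells had *Angpt1* at 21.1 ± 10.6 CPM in unchallenged lung (n = 3) and 24.7 ± 17.1 CPM in the metastasis TME (n = 2). These levels were not tested.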
